A study of Homo sapiens with 6 samples.

Results

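*GAS6* and *PROS1*, the genes of both secreted ligands of the TAM receptors, and *AXL*, *TYRO3* and *MERTK*, the genes of the 3 receptors, were followed in MRC5 lung fibroblasts. The 5 genes were taken by symbol from the 58676 gene identifiers of the count table, and all 5 had at least 10 counts over the 6 libraries, as did 19072 genes in all. MRC5 is an established line of human lung fibroblasts. All cells had spent 24 h in medium conditioned (CM) by ATII ER:KRASV12, an alveolar epithelial type II line whose RAS signaling is turned on by 4-OHT. Its untreated cells gave the CM of 3 libraries (control ATII CM), and its 4-OHT-treated cells that of the other 3 (4-OHT ATII CM). Each side of the comparison thus rests on 1 fibroblast line and 1 epithelial line. A direct effect of 4-OHT carried in the medium and an effect of RAS-activated cells cannot be told apart in this design.

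The TAM receptors are receptor tyrosine kinases of the cell surface. Their ligands, growth arrest-specific 6 (GAS6) and protein S (PROS1), have the same layout, with a vitamin K-dependent Gla domain that binds phosphatidylserine on dying cells and activated platelets, and a carboxy-terminal region that binds the receptor. GAS6 binds all of the receptors and AXL most tightly, whereas protein S binds TYRO3 and MERTK and also circulates as an anticoagulant cofactor. In the lung, AXL is mainly known from mesenchymal cells and MERTK from macrophages, where it drives the engulfment of apoptotic cells.

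*PROS1* was upregulated and *AXL* was downregulated in 4-OHT ATII CM, and the other receptor genes were not called. *GAS6* was lower in 4-OHT ATII CM, at 0.775 of its level in control ATII CM, while *PROS1* rose 1.27-fold. *AXL* fell to 0.901 of its control level, *TYRO3* was 1.11-fold higher without passing the threshold, and *MERTK* was near the limit of detection. *GAS6* had been picked for its difference between these groups, with one of the smallest p values among downregulated genes, and the family was chosen around it. Its values are therefore given as a description with no test. *PROS1* and the receptors were taken as members of the same system and were tested in a fit over all 19072 genes.

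A start of both ligand genes and of the dominant receptor gene is shown because these are the member that led to this family and the 2 that passed the test. All 5 members were found in a RefSeq table (GRCh38.p14) of the 250 bases before and 50 after a start of each gene. *AXL* and *TYRO3* have 2 such stretches each, and the one used for each member is that at the start of its MANE Select transcript, the transcript chosen to represent the gene. For *PROS1* this start lies inside the span of the gene as the count table gives it. Capitals mark matches, on either strand, to a GC box (GGGCGG), or to the letters of a FOXO (TGTTTAC) or STAT (TTCNNNGAA) motif. *GAS6* is read on the minus strand (chr13:113864027-113864326), *PROS1* on the minus strand (chr3:93973847-93974146) and *AXL* on the plus strand (chr19:41218973-41219272).
GAS6: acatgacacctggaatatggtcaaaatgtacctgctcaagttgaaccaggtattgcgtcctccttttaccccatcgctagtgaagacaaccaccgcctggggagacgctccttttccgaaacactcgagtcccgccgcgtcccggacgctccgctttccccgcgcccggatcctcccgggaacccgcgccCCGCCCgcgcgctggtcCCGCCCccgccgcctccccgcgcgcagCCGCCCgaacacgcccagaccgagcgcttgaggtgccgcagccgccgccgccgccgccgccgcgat
PROS1: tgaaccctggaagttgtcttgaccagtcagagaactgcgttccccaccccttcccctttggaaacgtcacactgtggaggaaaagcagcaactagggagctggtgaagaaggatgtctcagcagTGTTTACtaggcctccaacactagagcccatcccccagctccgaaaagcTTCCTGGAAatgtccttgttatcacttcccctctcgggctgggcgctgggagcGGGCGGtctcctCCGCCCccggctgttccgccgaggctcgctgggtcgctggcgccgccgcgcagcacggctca
AXL: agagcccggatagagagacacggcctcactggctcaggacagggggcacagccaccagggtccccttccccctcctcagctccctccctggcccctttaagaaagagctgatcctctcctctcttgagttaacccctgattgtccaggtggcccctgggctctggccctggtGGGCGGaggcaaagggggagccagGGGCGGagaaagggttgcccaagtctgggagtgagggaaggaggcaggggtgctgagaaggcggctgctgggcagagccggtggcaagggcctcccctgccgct
The *GAS6* stretch holds 3 GC boxes, the nearest beginning at -16 from the start, and no other match. That of *PROS1* holds 2 GC boxes, a FOXO match at -126 and a STAT match at -77, and that of *AXL* holds 2 GC boxes. Of 34796 such stretches, 44.9% hold a GC box, 3.42% the FOXO letters and 7.67% the STAT letters. Letters of AP-1 (TGANTCA), TEAD (GGAATG) and TATA box (TATAAA) motifs, found in 7.73%, 14.0% and 11.6% of the stretches, were not in the 3 shown. None of the matches overlap. The *GAS6* stretch is rich in CpG, with 42 such pairs of bases against 18 in *PROS1* and 7 in *AXL*, where the median of all stretches is 14.

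*GAS6* (ENSG00000183087) occupies positions 113820549 to 113864067 of chromosome 13 (GRCh38, minus strand). Levels are given as CPM, the counts scaled to library size after TMM normalization. Control ATII CM replicates 1 to 3 had 902, 977 and 953 CPM of *GAS6*, and those of 4-OHT ATII CM had 726, 737 and 733 CPM. Every library of 4-OHT ATII CM lay below every library of control ATII CM, and the 4-OHT libraries lay closer together than the controls. The means were 944 ± 38.4 CPM (SD, n = 3) and 732 ± 5.76 CPM (SD, n = 3), a log2 fold change (log2 FC, 4-OHT over control) of -0.37 ± 0.0319 (SE). The coefficient of variation was 4.07% in control ATII CM and 0.787% in 4-OHT ATII CM, where counting error at this depth is 0.732%.

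*GAS6-AS1* (ENSG00000233695), a long noncoding RNA gene read from the other strand, shares exon bases with *GAS6*. They form 4 stretches of 421 bases in all, 7.01% of the 6006 bases of merged *GAS6* exons. The library kit as named does not mark strand, so reads from these bases cannot be told apart. *GAS6-AS1* itself had 58, 30 and 69 counts (control ATII CM) and 51, 46 and 51 counts (4-OHT ATII CM), beside at least 15886 *GAS6* counts in any library. Its log2 FC was -0.31 ± 0.214 (SE, with an edgeR adjusted p = 0.523), and the groups overlapped. Adding its counts to those of *GAS6* left the *GAS6* log2 FC at -0.37, but counts this few could not have moved it. Reads over the shared bases that were counted for neither gene would be missing from the sum. The effect of the overlap on *GAS6* was thus not tested.

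*GAS6-DT* (ENSG00000272695), a noncoding RNA gene that starts 101 bases from *GAS6* in the other direction, shares no exon with it. *GAS6-DT* measured 19.4, 17.8 and 17.9 CPM with control ATII CM and 15.9, 15.6 and 15.6 CPM with 4-OHT ATII CM. It was thus lower in each 4-OHT library than in any control, as was *GAS6*, by a log2 FC of -0.23 ± 0.0684 (SE) that did not pass the threshold (edgeR adjusted p = 0.0629).

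**Figure D1:**
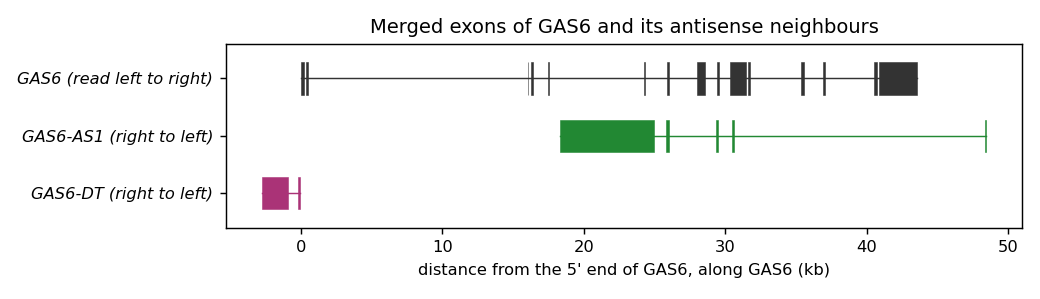
Merged exons (boxes) of *GAS6*, *GAS6-AS1* and *GAS6-DT*, with the distance in kb from the 5′ end of *GAS6* on the horizontal axis. Of the 4 stretches that make up the overlap of 421 bases, 3 lie in narrow boxes of *GAS6-AS1* and 1 lies in its widest box, while *GAS6-DT* lies to the left of the *GAS6* start.

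*PROS1* (ENSG00000184500, chromosome 3, 93873033 to 93980003, minus strand) encodes protein S. It stood at 36.5, 34.9 and 34.3 CPM in control ATII CM and at 44.8, 45.5 and 43.5 CPM in 4-OHT ATII CM. The groups were well separated, with the lowest 4-OHT library above the highest control. Means of 35.2 ± 1.09 CPM and 44.6 ± 1.00 CPM (SD, n = 3 each) gave a log2 FC of 0.34 ± 0.0460 (SE, with an edgeR adjusted p = 0.000336). The variation between replicates, 3.10% and 2.25%, was no larger than the counting error of 3.32%. *PROS1* was an upregulated DEG (adjusted p below 0.05) under all 13 alternative analyses, with adjusted p values from 3.36e-09 to 0.00503. Its pseudogene *PROS2P* matches 57.9% of the *PROS1* transcript at 96.8% identity and had no count in any library. How reads that map to both were treated is not given in the sources used here.

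*AXL* (ENSG00000167601, chromosome 19, 41219203 to 41261766, plus strand), the receptor with the highest RNA level, was at 439.8, 447 and 439 CPM in control ATII CM. In 4-OHT ATII CM it was at 408, 393 and 393 CPM, so that all 3 values lay below the controls. From 442 ± 4.52 CPM to 398 ± 8.78 CPM (SD, n = 3 each), the log2 FC was -0.15 ± 0.0307 (SE, with an edgeR adjusted p = 0.00759). *AXL* was a downregulated DEG, but not without replicate 2 or replicate 3 of 4-OHT ATII CM, where the adjusted p was 0.0568 and 0.0646 at nearly the same log2 fold change. Only 1.30% of its merged exon bases overlap another gene, ENSG00000269652 on the opposite strand.

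*TYRO3* (ENSG00000092445, chromosome 15, 41557675 to 41583586, plus strand) encodes a receptor best known from neurons and dendritic cells. It was at 50.0, 53.4 and 50.9 CPM in control ATII CM and at 55.6, 58.6 and 56.6 CPM in 4-OHT ATII CM. The groups did not overlap, but the gap between the highest control and the lowest 4-OHT library was narrower than the range within either group. With means of 51.4 ± 1.78 CPM and 56.9 ± 1.53 CPM (SD, n = 3 each), the log2 FC was 0.15 ± 0.0421 (SE), with a 95% interval of 0.066 to 0.23, just short of the threshold (edgeR adjusted p = 0.0508). *TYRO3* passed without a filter on low counts (adjusted p = 0.0152) and without replicate 2 of control ATII CM (adjusted p = 0.0123), the library with the fewest counts. The pseudogene *TYRO3P*, which matches 33.3% of the transcript at 93.0% identity, had 2 counts over all libraries.

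*MERTK* (ENSG00000153208, chromosome 2, 111898479 to 112029561, plus strand) had 2, 3 and 4 counts in the controls and 8 in each library of 4-OHT ATII CM. These are 0.146 ± 0.0455 CPM and 0.330 ± 0.0316 CPM (SD, n = 3 each), where 3 counts in the smallest library correspond to 0.170 CPM. Over the libraries of a group, 9 and 24 counts gave a ratio of 2.26, with an exact 95% interval of 1.01 to 5.52 that covers counting error only. The log2 FC of 1.15 ± 0.528 (SE) was not called (edgeR adjusted p = 0.278). A difference in *MERTK* was thus not established at this depth, although the 4-OHT libraries were all above the controls.

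**Figure D2:**
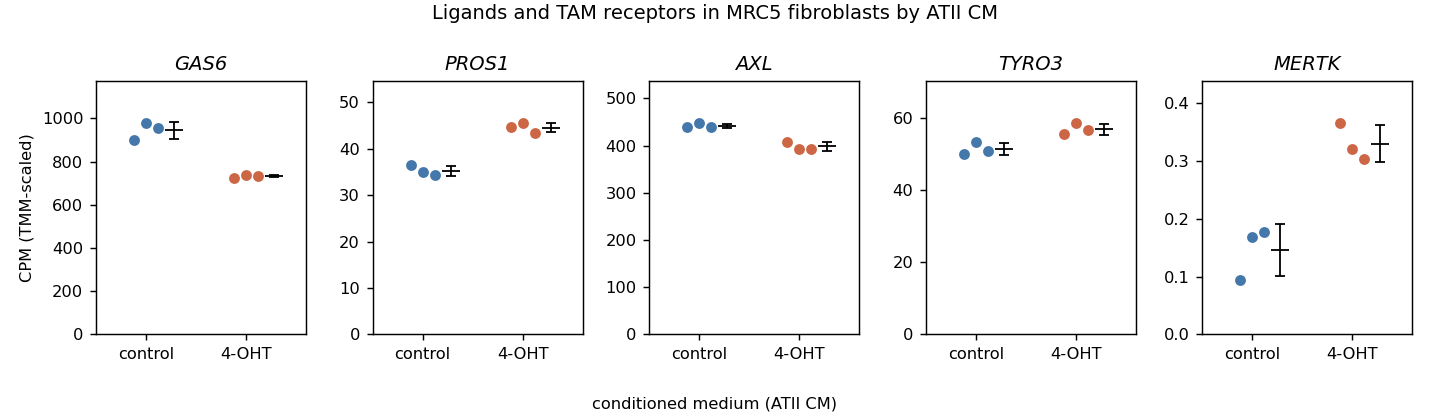
Level of each member in CPM (vertical axes, each from 0) in the 3 libraries of each group (points), with the mean and SD beside them. *GAS6* and *AXL* lie lower, and *PROS1*, *TYRO3* and *MERTK* higher, in all 4-OHT libraries than in all controls.

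*GAS6* was chosen by its difference, so the family is counted here without it. Values of the groups did not overlap in any of the other 4 genes, which was so for 22.1% of all genes tested and for 30.4% of the 9202 with a mean of at least 10 CPM. By direction, 3 of them were higher and 1 was lower in this way, beside 11.7% and 10.4% of all genes. Of the same 4 genes, 1 was an upregulated and 1 a downregulated DEG. Among all genes tested 5.72% were DEGs (2.95% up- and 2.76% downregulated), and among those of at least 10 CPM 10.2% were. The labels do not say whether the libraries of a group came from separate cultures, so that these p values measure the spread between libraries, which may be technical. In bulk RNA, fewer cells that express a gene and less of its RNA per cell cannot be told apart.

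**Figure D3:**
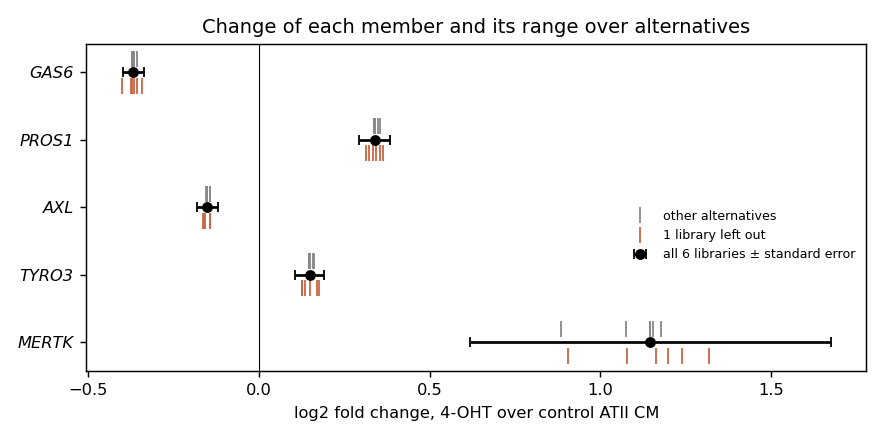
The log2 fold change of each member with all libraries (black point, bar for the standard error), with 1 library left out at a time (orange ticks) and under the other alternatives (grey ticks). No tick crosses 0, and the ticks of *MERTK* spread most, from 0.88 to 1.32.

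To compare the genes with each other, levels were divided by the length of the merged exons and are given as CPM per kb. *GAS6* was the most abundant, at 157 ± 6.40 CPM per kb in control ATII CM and 122 ± 0.960 CPM per kb in 4-OHT ATII CM (SD, n = 3 each). *AXL* followed with 85.8 ± 0.876 and 77.3 ± 1.70 CPM per kb, *PROS1* with 6.47 ± 0.201 and 8.19 ± 0.185, and *TYRO3* with 4.70 ± 0.162 and 5.20 ± 0.139. *MERTK* was last with 0.0311 ± 0.00969 and 0.0703 ± 0.00672 CPM per kb. The order was the same in every library, and no range of a gene over the 6 libraries touched that of its neighbour. Lengths of the MANE Select transcripts kept this order but raised the mean level of *GAS6* from 139.5 to 334 CPM per kb, because its transcript (2508 bases) is much shorter than its merged exons.

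Of the summed per-length level of both ligands, *GAS6* made up 95.7%, 96.2% and 96.2% with control ATII CM, and 93.6%, 93.6% and 93.9% with 4-OHT ATII CM. The ratio of *GAS6* to *PROS1* was 24.3 ± 1.64 and 14.9 ± 0.340 (SD, n = 3 each), which restates the *GAS6* and *PROS1* values above. *AXL* made up 94.6% to 94.9% of the receptor level in control ATII CM and 93.4% to 93.9% in 4-OHT ATII CM. *TYRO3* made up nearly all of the remainder, 5.08% to 5.32% and 6.02% to 6.55%, and *MERTK* 0.0222% to 0.0921% in any library. These shares follow from the levels above, among them that of *GAS6*, which was picked for its difference, and that of *TYRO3*, which was not called. In both media most of the RNA of this system was that of *GAS6* and *AXL*.

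**Figure D4:**
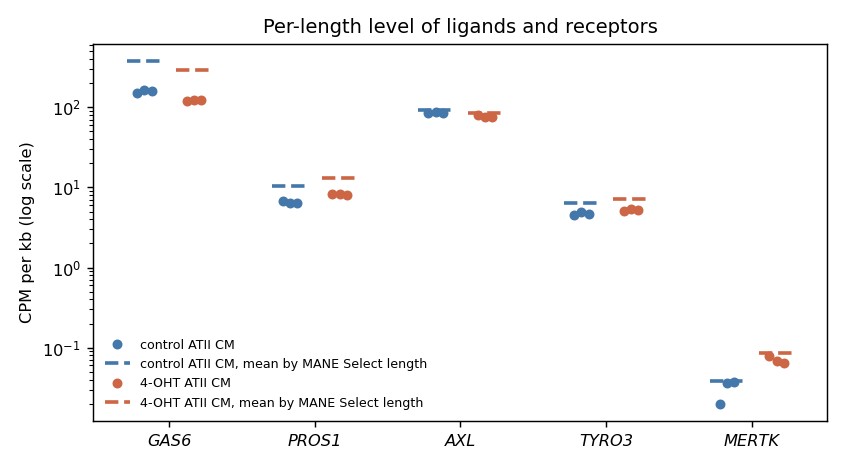
CPM per kb of merged exons (log axis) of each member in the single libraries (points), and group means by MANE Select transcript length (dashed lines). *GAS6* and *AXL* lie well above *PROS1* and *TYRO3* by either length, and *MERTK* lies far below them.

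Markers of other cell types were checked because MERTK is typical of macrophages and the CM came from epithelial cells. The fibroblast markers *COL1A1*, *COL1A2*, *PDGFRB*, *THY1*, *VIM*, *LUM* and *DCN* were all expressed, with a summed level of 35569 to 38769 CPM in control ATII CM and 36555 to 38033 CPM in 4-OHT ATII CM. *LUM* and *DCN* among them were upregulated and *VIM* was downregulated. Of 7 epithelial markers, *SFTPA1* and *NKX2-1* had no count, *SFTPB*, *SFTPC* and *CDH1* were also under 10 counts, *EPCAM* and *CLDN4* were not called, and the sum was at most 1.41 CPM in any library. Of 7 macrophage and leukocyte markers, *MARCO* and *AIF1* had no count, *PTPRC*, *LYZ* and *TYROBP* were also under 10 counts, and the sum was 0.750 to 1.50 CPM in control ATII CM and 1.10 to 2.17 CPM in 4-OHT ATII CM. The 2 markers with enough counts went opposite ways, *CD14* from 0.766 ± 0.178 to 1.48 ± 0.409 CPM and *CSF1R* from 0.369 ± 0.217 to 0.145 ± 0.0923 CPM (SD, n = 3 each). Neither was called (edgeR adjusted p = 0.0597 and 0.313), and their part in the *MERTK* values was not tested. Of 5 endothelial markers, *PECAM1* and *CDH5* had no count, *KDR* was under 10 counts and *VWF* was not called, whereas *TEK*, a receptor tyrosine kinase outside the TAM family, was upregulated from 128 ± 9.06 to 167 ± 4.57 CPM (SD, n = 3 each, edgeR adjusted p = 0.000162).

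Genes around the TAM system were grouped by role. Counts of called genes per list are to be set beside 5.72% DEGs among all genes tested (2.95% up- and 2.76% downregulated). Among genes with a mean of at least 10 CPM, the share was 10.2%. GAS6 and protein S become active after their Gla domains are carboxylated with vitamin K. Of 6 genes of this cycle, 1 was upregulated and 5 were not called (median log2 fold change -0.015, against -0.0020 over all genes tested). *NQO1*, a quinone reductase, had a log2 fold change of 0.16 (adjusted p = 0.0119 from edgeR), which did not pass when any of 4 libraries (replicates 1 and 3 of control ATII CM or 2 and 3 of 4-OHT ATII CM) was left out, with an adjusted p of up to 0.0928. The carboxylase *GGCX* was at 67.5 ± 2.69 and 69.8 ± 0.627 CPM, the reductase *VKORC1L1* at 72.5 ± 3.13 and 71.6 ± 3.94 CPM, and *CALU*, an inhibitor of the carboxylase, at 1789.9 ± 13.8 and 1774 ± 13.0 CPM (SD, n = 3 each). The reductase *AIFM2* had a log2 FC of -0.025 (adjusted p = 0.848). The machinery that modifies the ligands thus showed no called change besides *NQO1*.

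Of 13 other genes of Gla-domain proteins, 7 were tested and 1 was called (14.3%, beside 5.72% of all genes tested). *PRRG1*, a membrane protein with a Gla domain, rose from 48.9 ± 1.70 to 57.3 ± 2.04 CPM (SD, n = 3 each) with a log2 FC of 0.22 (adjusted p = 0.00540 from edgeR). *F10*, coagulation factor X, was at 11.2 ± 0.396 and 12.7 ± 0.660 CPM (adjusted p = 0.250). *MGP*, the matrix Gla protein, was at 1.16 ± 0.208 and 1.64 ± 0.318 CPM (adjusted p = 0.311). *F7*, coagulation factor VII, and *PRRG2* were below 1 CPM in both groups, with log2 FCs of 0.052 and 1.36 (adjusted p = 0.958 and 0.220). Among 10 partners of protein S in coagulation, 6 were tested and none was called by edgeR, where 2 had an unadjusted p below 0.05. *SERPINE2*, an inhibitor of thrombin and other serine proteases, came closest, at 187 ± 3.94 and 203 ± 6.14 CPM (SD, n = 3 each) in groups that did not overlap (adjusted p = 0.0583), and was called by DESeq2 and limma-voom. *F3*, tissue factor, was the most abundant, at 1821 ± 53.0 and 1900.2 ± 58.5 CPM, and *PROCR*, the protein C receptor, was at 19.1 ± 1.70 and 21.3 ± 0.571 CPM (SD, n = 3 each). *TFPI*, the tissue factor pathway inhibitor that protein S assists, was at 121 ± 0.998 and 122 ± 2.33 CPM.

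Shedding by ADAM proteases releases the outer part of AXL and MERTK. None of 7 genes of this group was called by edgeR, where 1 had an unadjusted p below 0.05 (median log2 fold change 0.015), and *ADAM10* was at 329 ± 8.23 and 333 ± 5.24 CPM (SD, n = 3 each). The metalloproteinase inhibitors *TIMP1* and *TIMP3* had log2 FCs of 0.019 and 0.016. *TIMP2*, of the same family, came closest with a log2 fold change of -0.091 (adjusted p = 0.0886), and was called by DESeq2 and limma-voom.

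Of 20 adaptors and effectors of receptor signaling, 18 were tested, 3 were upregulated and 15 were not called (median log2 fold change 0.025). The share called was 16.7%, beside 5.72% of all genes tested and 10.2% of those with at least 10 CPM. *SOCS3*, a feedback inhibitor of cytokine signaling that TAM receptors induce in myeloid cells, rose from 91.1 ± 3.13 to 114 ± 1.93 CPM (SD, n = 3 each) with a log2 FC of 0.32 (adjusted p = 0.000135 from edgeR). The adaptor *NCK2* rose by 0.23 on the log2 scale (adjusted p = 0.0105 from edgeR). *NCK2* was not called without replicate 1 or 3 of control ATII CM or replicate 2 of 4-OHT ATII CM (adjusted p of up to 0.0855). The adaptors *SHC1* and *GRB2* had log2 fold changes of 0.042 and 0.024 and were not called, nor were *TNS2* (-0.047) and the kinase *AKT1* (-0.0077).

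Exposure of phosphatidylserine brings the ligands to a membrane. Of 7 genes that move this lipid, *PLSCR1* was upregulated, from 34.2 ± 0.346 to 41.0 ± 1.96 CPM (SD, n = 3 each, adjusted p = 0.00389 from edgeR), and the other 6 were not called. The share called was 14.3%, beside 5.72% of all genes tested. The scramblase *ANO6* was at 124 ± 4.44 and 131 ± 6.15 CPM, and *TMEM30A*, the partner subunit of lipid flippases, at 498 ± 13.2 and 497 ± 11.8 CPM. The scramblase *XKR8* had a log2 FC of -0.042 (adjusted p = 0.877).

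Other bridging molecules and engulfment genes made up a list of 25, of which 21 were tested, 3 were upregulated, 2 were downregulated and 16 were not called (median log2 fold change 0.019). The share called was 23.8%, beside 5.72% of all genes tested and 10.2% of those with at least 10 CPM. Upregulated were *EDIL3*, a bridging protein between phosphatidylserine and integrins (log2 fold change 0.23, adjusted p = 0.000733 from edgeR), *ITGB3*, the integrin β3 subunit that binds it (0.38, adjusted p = 0.000336), and *THBS1* (0.14, adjusted p = 0.0189). *ITGB5*, the β5 subunit, was downregulated (-0.12, adjusted p = 0.0399), as was *ANXA1*, annexin A1 (-0.16, adjusted p = 0.0156). *ITGB5* was not called in 6 of 13 alternatives, among them the loss of any library except replicate 2 of control ATII CM (adjusted p of up to 0.166), and *THBS1* and *ANXA1* were not called without replicate 2 or 3 of 4-OHT ATII CM (up to 0.101 each). *MFGE8*, which bridges dying cells to integrins as EDIL3 does, was at 1356 ± 49.0 and 1398 ± 20.9 CPM (SD, n = 3 each, adjusted p = 0.505). *CALR*, an eat-me signal of dying cells, *ANXA5*, a phosphatidylserine-binding annexin, and *RAC1*, a GTPase of phagocytosis, had log2 FCs of -0.0037, 0.019 and -0.030 and were not called.

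*GAS6* takes its name from genes that rise when fibroblasts stop dividing. Of 5 other growth arrest-specific genes that were listed, *PMP22* (also known as GAS3) was upregulated from 277 ± 5.73 to 341 ± 5.34 CPM (SD, n = 3 each) with a log2 FC of 0.30 (adjusted p = 4.6e-05 from edgeR). *GAS1*, *GAS2*, *GAS5* and *GAS7* had log2 fold changes of 0.24, 0.11, -0.023 and 0.080 and were not called. The share called was 20%, beside 5.72% of all genes tested. Proliferation markers were lower in 4-OHT ATII CM in the same libraries, with 7 of 8 downregulated (median log2 fold change -0.50), beside 2.76% of all genes tested. *MKI67* went from 41.5 ± 4.60 to 24.2 ± 0.896 CPM and *TOP2A* from 98.5 ± 4.12 to 66.7 ± 4.58 CPM (SD, n = 3 each), while *CDK1*, *CCNB1*, *CCNA2*, *BUB1* and *MCM2* had log2 FCs of -0.48, -0.53, -0.44, -0.60 and -0.46. *PCNA* was not called (adjusted p = 0.242). *MCM2* was not called without replicate 3 of control ATII CM or replicate 2 of 4-OHT ATII CM (adjusted p of up to 0.0651). Some of these markers were known to be lower from earlier results of these data, and their part in the differences of *GAS6* and *AXL* was not tested.

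All role lists together held 101 genes, of which 85 were tested and 19 (22.4%) were DEGs, 10 upregulated and 9 downregulated. Without the proliferation markers, 12 of 77 (15.6%) were DEGs, 10 of them upregulated, beside 5.72% of all genes tested and 10.2% of those with at least 10 CPM. The lists were chosen with earlier results of these data known, so these shares are a description, and enrichment was not tested.

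**Figure D5:**
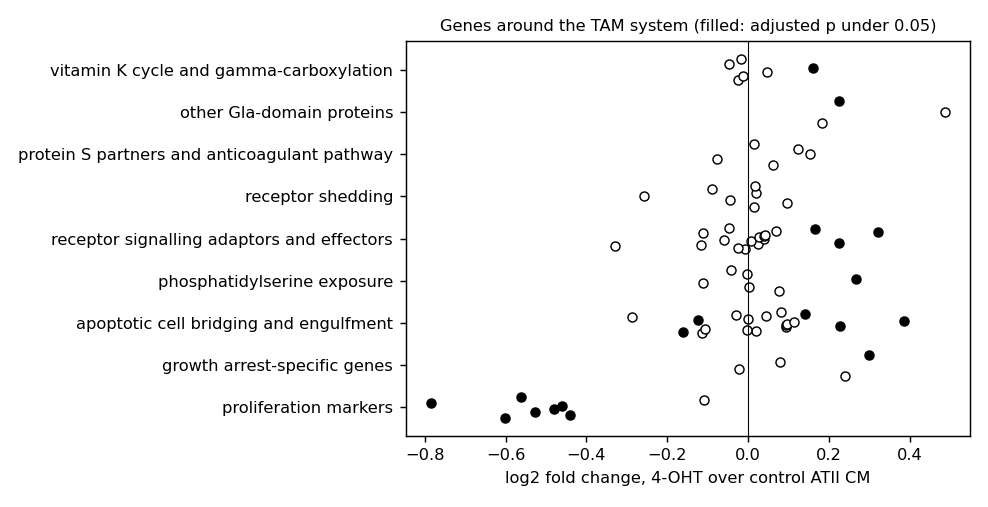
The log2 fold change of each gene of the role lists with a mean of at least 1 CPM, 74 of the 85 tested, by list. Filled points are DEGs. Proliferation markers lie to the left, and called genes of the other lists lie mostly to the right.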

How the data were processed

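RNA-Seq was performed by the authors in 6 libraries of MRC5 cells. Reads were trimmed with Trim Galore, mapped to GRCh38 with HISAT2 2.1.0 and counted with featureCounts 1.6.5, and the counts the authors deposited are raw, one column per library. The annotation release, the strand setting and the treatment of multi-mapped reads are not given in the sources used here. Totals ranged from 17691849 to 26389449 counts, and control ATII CM replicate 2 was the smallest and least like its group. Counts of 45 identifiers listed on both X and Y were added. GENCODE 44 named 41937 of the 58676 identifiers.

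Genes with at least 10 counts over the libraries were normalized by TMM and tested with the edgeR 4.0.16 quasi-likelihood test (R 4.3.3), with group as the only term and Benjamini-Hochberg adjustment at 0.05. The SE is the log2 FC over the root of its F statistic. Alternatives were DESeq2 1.42.0, limma-voom (limma 3.58.1), other size factors and filters, a replicate block, thinned libraries and 1 library left out. The tests were checked on simulated counts. Pseudogenes were aligned with blastn 2.17.0. Overlaps of exons were computed from the exon positions in the deposited table.

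Members, lists and motifs were chosen with earlier results of these data known. Named genes were all members, overlapping or antisense genes and pseudogenes of members, called list genes, up to 4 uncalled ones per list with the highest per-length level, the cell type markers, and the genes most correlated with a member. The results of 2 such genes are left out here.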

Additional observations from a re-analysis of the deposited data

How the results depend on the processing

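*GAS6* kept its direction in all 14 alternatives (log2 fold change -0.40 to -0.34), and *PROS1* stayed an upregulated DEG in 13 of 13. *AXL* lost its call in 2 of 14, both with a library left out (log2 fold change -0.16 to -0.14 over such fits). *TYRO3* gained one in 2 of 13, namely without a filter on low counts (log2 fold change 0.16) and with 1 library left out (0.13 to 0.18 over such fits). *MERTK* was called in none of 12 (adjusted p from 0.281 to 0.543, none from DESeq2) and could not be fitted after edgeR's own expression filter, which removed it. The number of DEGs, 1090 with all libraries, was 533 when 4-OHT ATII CM replicate 2 was left out and 1530 when control ATII CM replicate 2 was, and was also more than 1.5 times lower without replicate 3 of either group (663 without the control, 615 without the 4-OHT library). DEGs of the role lists, 19 with all libraries, ranged from 13 to 24. The causes were not tested, but 1 library fewer also leaves fewer samples. Counts of overlapping genes could be added for *GAS6* and *AXL*, the members with such genes.

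Over genes with a mean of at least 1 CPM, libraries with the same replicate number deviated together only weakly (Pearson correlation 0.0256 to 0.0631). Pairs with different numbers had correlations of -0.0595 to 0.0228, and each library had its highest value with its own number. With the replicate number as a block, there were 985 DEGs, 18 of them in the role lists, and no member changed its call (adjusted p = 0.000976 for *PROS1*, 0.0151 for *AXL*, 0.0533 for *TYRO3* and 0.377 for *MERTK*, from edgeR).

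Mean levels over all libraries as TPM were 568 for *GAS6*, 332 for *AXL*, 29.8 for *PROS1*, 20.1 for *TYRO3* and 0.206 for *MERTK*, another scale than CPM per kb (139.5, 81.5, 7.33, 4.95 and 0.0507). By the length of the MANE Select transcript, an alternative chosen after seeing the data, they were 334, 89.1, 11.8, 6.75 and 0.0622 CPM per kb in the same order. Depth limits *MERTK*, with at most 8 counts in a library.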

Other observations

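Genes whose levels ran most closely with each member were listed by Pearson correlation of log2 CPM over the 6 libraries, among 13050 genes with a mean of at least 1 CPM. As the libraries fall into 2 groups, such lists largely hold genes that differ between the groups, and the values are a description. Nearest to *GAS6* were *PXN* (r = 0.999), *HNRNPA1* (0.997), *NUDT1* (0.996), *PCLAF* (0.996) and *CCND1* (0.996), which encode paxillin, an RNA-binding protein with many pseudogenes that may share its reads, an enzyme that clears oxidized nucleotides, a PCNA-binding factor and cyclin D1. Their log2 fold changes were -0.14, -0.16, -0.36, -0.61 and -0.15.

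Nearest to *AXL* were *CCBE1*, *MAD2L1* and *FOXM1* (r = 0.9998, 0.999 and 0.999), with log2 fold changes of -0.34, -0.48 and -0.50. *MAD2L1* is a spindle checkpoint gene and *FOXM1* a transcription factor of the G2/M phase. Nearest to *PROS1* were *SELENOW*, *ELOVL5* and *RASL11A* (r = 0.996, 0.996 and 0.995), with log2 fold changes of 0.15, 0.18 and 0.58. Nearest to *TYRO3* were *FBXO31*, *SCPEP1* and *PRMT2* (r = 0.995, 0.994 and 0.994), with log2 fold changes of 0.14, 0.15 and 0.093. *MERTK* had too few counts to be compared.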
